A study of Homo sapiens with 6 samples.

Results

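The E2F family of transcription factors and the E-type cyclins were followed in MDA-MB-231 cells, an established human triple-negative breast cancer (BC) line, with and without Parishin B (PB), a phenolic glucoside of the orchid Gastrodia elata. The members were the rows of the deposited gene table whose symbol is E2F1 to E2F8, CCNE1 or CCNE2. All 10 were present among the 61806 genes of the table, and all 10 passed the expression limit, a mean of at least 0.1 FPKM (fragments scaled by exonic length and by the library total) over the 6 samples, which 24200 genes passed. The study compared 3 control samples with 3 samples treated with PB at 20 µM for 24 h, by sequencing of polyadenylated RNA from bulk cultures. The labels name no engineered change and no other agent in either group. The vehicle of the sequenced controls is not given in the sources used here, and no source says whether the 3 samples of a group came from separate cultures. The p-values therefore measure the spread between these samples, which may be technical.

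E2F proteins switch on the genes a cell needs to enter S phase. In G1 they are held by the pocket proteins RB1, RBL1 and RBL2. Cyclin D kinases and then cyclin E bound to CDK2 phosphorylate the pocket proteins and release E2F. E2F1, E2F2 and E2F3 are the activators. E2F4 and E2F5 act mostly as repressors with RBL1 and RBL2, and E2F6 represses without pocket proteins, within Polycomb complexes. E2F7 and E2F8 are atypical repressors that bind DNA without a DP partner and lower E2F target transcription late in S phase. CCNE1 and CCNE2 are themselves E2F targets, which closes a positive loop, and E2F1, E2F2, E2F7 and E2F8 are targets too.

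The promoter stretches of 4 members are shown because they cover the largest falls among the activators (E2F1 and E2F2), the activator that moved least (E2F3) and the member with the largest rise (E2F7). Each is the 130 bases before the gene start in RefSeq, build GRCh38.p14, written 5′ to 3′ on the strand of the gene. Capitals mark a match, on either strand, to the E2F motif (TTTCGCGC or TTTGGCGC), to the cell cycle homology region (CHR, TTTGAA or TTCGAA) or to the NF-Y box (CCAAT, which reads ATTGG on the other strand).
E2F1 promoter, chr20:33686386-33686515, minus strand: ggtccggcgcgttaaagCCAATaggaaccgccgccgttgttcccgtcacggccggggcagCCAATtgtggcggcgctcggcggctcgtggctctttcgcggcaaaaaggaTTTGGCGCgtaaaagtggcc
E2F2 promoter, chr1:23531234-23531363, minus strand: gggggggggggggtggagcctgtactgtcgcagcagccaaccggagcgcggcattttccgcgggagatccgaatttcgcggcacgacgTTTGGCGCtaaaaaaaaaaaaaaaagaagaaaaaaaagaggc
E2F3 promoter, chr6:20401749-20401878, plus strand: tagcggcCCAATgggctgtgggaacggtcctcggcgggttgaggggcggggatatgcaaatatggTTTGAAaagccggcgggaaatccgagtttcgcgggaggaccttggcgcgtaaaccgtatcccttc
E2F7 promoter, chr12:77065570-77065699, minus strand: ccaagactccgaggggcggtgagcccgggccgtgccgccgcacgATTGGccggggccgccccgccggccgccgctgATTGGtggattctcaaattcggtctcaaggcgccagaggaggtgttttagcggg

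Over the window from 250 bases before to 50 after the start, an E2F match was present in 1.15% of the 35116 promoter windows of the RefSeq table. Among the 7 members with a window in that table (E2F1, E2F2, E2F3, E2F4, E2F6, E2F7 and CCNE1, with a pair of windows for E2F3), it was present in E2F1 and E2F2. The match in E2F1 begins 20 bases before the start and the match in E2F2 begins 42 bases before it. A CHR match was present in E2F3, against 16.4% of all windows. CCAAT was present in E2F1 with 3 matches, in E2F3 with 4 and in E2F7 with 4, against 34.6% of all windows. The windows of E2F4, E2F6 and CCNE1 held none of the motifs. A missing match, also that of the E2F motif in E2F3 and E2F7, says only that these letters are not in the window. Near matches were not counted, and the stretches of E2F1, E2F2 and E2F3 all hold tttcgcgg. E2F5, E2F8 and CCNE2 had no window.

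The libraries held between 15681655 and 21986948 counts assigned to genes, and the members had 88 to 3209 counts per sample. FPKM is scaled by the library total. The fitted log2 fold changes (PB over control) use the TMM scaling of edgeR, under which the median over all tested genes was 0.011. With library size alone this median was 0.14, so FPKM values sit higher in PB, relative to control, than the fitted changes by about that amount. Shares and ratios between genes of the same sample do not depend on this scaling. A gene was called when its adjusted p was at most 0.05 and its log2 fold change was at least 1 in either direction. Of the MDA-MB-231 markers, all 10 of those expected present passed the expression limit, SPARC at only 0.81 FPKM in control and 0.45 FPKM in PB. Their summed level was 1144–1175 FPKM in control and 1082–1086 FPKM in PB, most of it from vimentin and AXL. FN1 and CAV1 of that list were called lower. Vimentin (VIM), the mesenchymal filament protein, had means of 603 FPKM and 635 FPKM. The estrogen receptor gene ESR1 was at 0.07 FPKM in control and 0.15 FPKM in PB, and PGR at 0.05 FPKM and 0.07 FPKM. GATA3 was at 0.22 FPKM and 0.39 FPKM and ERBB2 at 2.95 FPKM and 3.59 FPKM. The luminal factor FOXA1 was at 1.03 FPKM and 0.54 FPKM and was called lower.

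The control libraries stood apart from the PB libraries in a set of genes outside the family. A total of 113 genes reached 30 counts or more in all controls while staying at or under 3 in all PB samples, against 1 gene in the reverse direction. Of the 113 genes 6 lie on chromosome Y. In both groups CDKN2A, whose locus is known to be deleted in MDA-MB-231, was counted, with means of 10.1 FPKM in control and 11.35 FPKM in PB. Whether every library, control or PB, came from the labelled line alone was not tested. Each comparison of PB with control below carries this limit. These 113 genes took 0.178–0.181% of the counts in control and 0.000369–0.000472% in PB. The share leaves out genes that kept more than 3 counts in PB, such as KRT7, with means of 44.5 FPKM in control and 0.44 FPKM in PB. Of 20 epithelial markers 14 were tested, and 9 (64.3%) were called lower and 1 higher, where 6.73% and 5.36% of all tested genes were. The summed level of the 20 markers was 455.9–462.3 FPKM in control and 162.2–167.9 FPKM in PB. CEACAM6, an epithelial adhesion molecule and the deepest fall of this list, had a mean of 7.27 FPKM in control and at most 3 counts in every PB sample. CDH1 (E-cadherin), ELF3 and AGR2 were also at or under 3 counts in every PB sample. ESRP1, an epithelial splicing factor, was the marker called higher, from 0.40 FPKM to 1.35 FPKM. GRHL2, OVOL1, CLDN7, RAB25 and ST14 were at or under 3 counts in every sample of both groups. Markers of leukocytes, endothelium, fibroblasts, hepatocytes and melanocytes summed to 1.04–1.28 FPKM in control and 0.88–1.05 FPKM in PB over 10 genes. The part of these differences in the results for the E2F family was not tested.

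The members differed unevenly between the PB and the control samples. Of the 10 members, 4 were called lower (E2F1, E2F2, E2F8 and CCNE2) and none higher, where 6.73% of all tested genes were called lower and 5.36% higher. That split over all genes, 1629 lower and 1296 higher, was 1336 lower and 1809 higher with library size alone, under which 3 members were called lower and none higher. By the adjusted p alone 7 members were lower and 2 higher, where 26.1% of all tested genes were lower and 24.1% higher. The FPKM ranges of the groups did not overlap for 7 members that were lower and 2 that were higher, where 21.6% of tested genes were lower and 34.1% higher without overlap. E2F6 was the only member left over both by the adjusted p alone and by the overlap of ranges. With 3 samples against 3 the smallest two-sided p of the exact permutation test is 0.1, and each of the 9 members without overlap reached it. In bulk RNA, fewer cells in the phase that expresses a gene and less RNA per cell cannot be told apart.

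**Figure D1:**
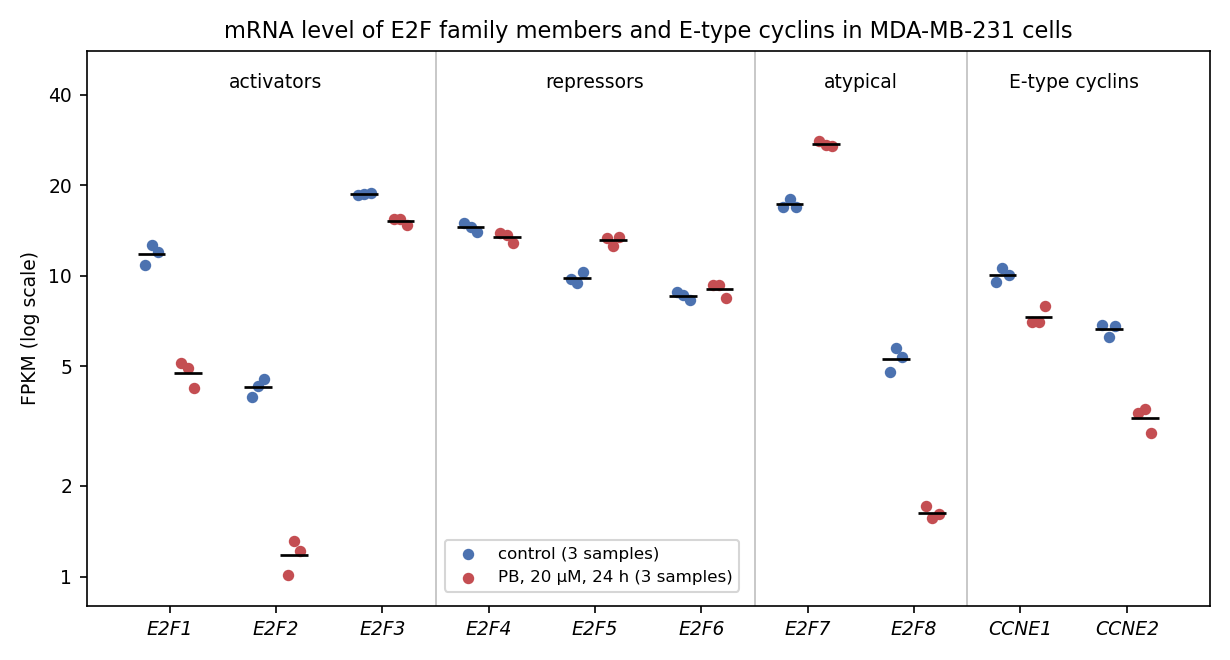
FPKM (log scale) of each member in the 3 control samples (blue) and the 3 PB samples (red), one point per sample, with the group mean as a black bar. E2F1, E2F2, E2F8 and CCNE2 sit well apart below their controls, E2F7 sits above its controls and the groups of E2F6 overlap.

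Among the activators, E2F1 and E2F2 fell and E2F3 moved little. E2F1, which drives both S phase entry and apoptosis genes, lies at chr20:33675477-33686385 on the minus strand (hg38, as the table gives it). Its level was 10.89, 12.65 and 12.02 FPKM in the control samples and 5.13, 4.93 and 4.24 FPKM in the PB samples. The highest PB sample was below the lowest control. The fitted log2 fold change was −1.46 (SE 0.074, 95% interval −1.60 to −1.31, adjusted p = 1.59e-84), a 2.75-fold lower level.

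E2F2, an activator whose role overlaps that of E2F1 and the least abundant member here, lies at chr1:23506438-23531233 on the minus strand. Control samples held 3.96, 4.30 and 4.55 FPKM and PB samples 1.01, 1.31 and 1.22 FPKM. The groups were well separated, and the fitted log2 fold change of −1.99 (SE 0.094, 95% interval −2.18 to −1.81, adjusted p = 4.88e-99) was the deepest of the 10 members. The interval of E2F2 did not overlap that of E2F1.

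E2F3, an activator with known isoforms, lies at chr6:20401879-20493714 on the plus strand. It was at 18.62, 18.72 and 18.88 FPKM in control and at 15.43, 15.46 and 14.80 FPKM in PB. The samples of each group lay close together and the groups did not overlap. The log2 fold change was −0.43 (SE 0.038, 95% interval −0.51 to −0.36, adjusted p = 5.05e-29), past the p threshold but short of the fold threshold. The table has 1 row for E2F3, so its isoforms were not separated. The ratio of E2F3 to E2F1 was 1.48–1.71 in control and 3.01–3.49 in PB, and the ratio of E2F3 to E2F2 was 4.15–4.70 in control and 11.8–15.3 in PB.

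The repressors moved by small amounts and in different directions, and none was called. E2F4, the main E2F of resting cells, lies at chr16:67192155-67198918 on the plus strand. Its level was 15.02, 14.58 and 13.96 FPKM in control and 13.85, 13.71 and 12.88 FPKM in PB. The lowest control lay just above the highest PB sample. The log2 fold change was −0.24 (SE 0.048, adjusted p = 2.03e-06), and with limma on log2(FPKM + 0.1) it was −0.11 with an adjusted p of 0.0771. In edgeR with library size alone it was also −0.11 (adjusted p = 0.0491).

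E2F5, a repressor that lacks a nuclear localisation signal of its own, lies on chromosome 8. It was at 9.79, 9.45 and 10.33 FPKM in control and at 13.40, 12.55 and 13.45 FPKM in PB. Every PB sample was above every control, with a log2 fold change of 0.28 (SE 0.042, 95% interval 0.20 to 0.36, adjusted p = 1.36e-10). E2F5 shares 969 exonic bases (16.3% of its exons) with RBIS on the opposite strand, which had a log2 fold change of −0.26 (SE 0.042). The strand setting of the counting is not given in the sources used here, so reads of the shared bases could belong to either gene.

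E2F6, which lacks the pocket protein binding domain, lies at chr2:11444375-11466177 on the minus strand. Its level was 8.82, 8.64 and 8.28 FPKM in control and 9.32, 9.33 and 8.45 FPKM in PB. PB sample 3 lay within the control range. The log2 fold change was −0.059 (SE 0.056, 95% interval −0.17 to 0.050, adjusted p = 0.407) with TMM and 0.074 with library size alone, so it has no direction here, and the exact permutation p of its FPKM values was 0.3.

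The atypical pair moved apart. E2F7, which is known to repress E2F1 and to respond to p53, lies at chr12:77021248-77065569 on the minus strand. It was at 16.99, 17.98 and 16.92 FPKM in control and at 28.07, 27.29 and 26.92 FPKM in PB. The lowest PB sample was well above the highest control, and the log2 fold change of 0.53 (SE 0.033, 95% interval 0.47 to 0.60, adjusted p = 1.24e-58) was the largest rise of a member, a 1.45-fold higher level that stayed short of the fold threshold. E2F7 ranked next to E2F3 in control and above it in PB.

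E2F8, the partner with which E2F7 forms dimers, lies at chr11:19224063-19241620 on the minus strand. Control samples held 4.80, 5.76 and 5.36 FPKM and PB samples 1.71, 1.56 and 1.61 FPKM. The PB samples lay close together, far below the controls, with a log2 fold change of −1.84 (SE 0.094, 95% interval −2.03 to −1.66, adjusted p = 2.11e-83), a 3.59-fold lower level. The ratio of E2F7 to E2F8 mRNA was 3.12–3.54 in control and 16.4–17.5 in PB.

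Both E-type cyclins were lower with PB, CCNE2 more than CCNE1. CCNE1, the cyclin that is amplified in a part of breast and ovarian tumours, lies at chr19:29811991-29824312 on the plus strand. Its level was 9.51, 10.65 and 10.05 FPKM in control and 7.03, 7.0 and 7.93 FPKM in PB. The groups did not overlap and the log2 fold change was −0.59 (SE 0.073, 95% interval −0.73 to −0.45, adjusted p = 3.18e-15), past the p threshold only.

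CCNE2, on chromosome 8, was at 6.86, 6.28 and 6.82 FPKM in control and at 3.49, 3.60 and 3.01 FPKM in PB. Every PB sample was well below every control. The log2 fold change was −1.12 (SE 0.073, 95% interval −1.27 to −0.98, adjusted p = 6.36e-52), and its interval did not overlap that of CCNE1. It was −0.99 with library size alone, −0.97 with limma on log2(FPKM + 0.1) and −0.81 with limma on log2(FPKM + 1), which is under the fold threshold in each case. The ratio of CCNE2 to CCNE1 was 0.590–0.721 in control and 0.380–0.514 in PB. CCNE2 shares 1629 exonic bases (37.0% of its exons) with INTS8 on the opposite strand, whose count reached 912% of that of CCNE2 and whose log2 fold change was −0.28 (SE 0.033). How the counts of the shared bases were divided is not given in the sources used here.

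**Figure D2:**
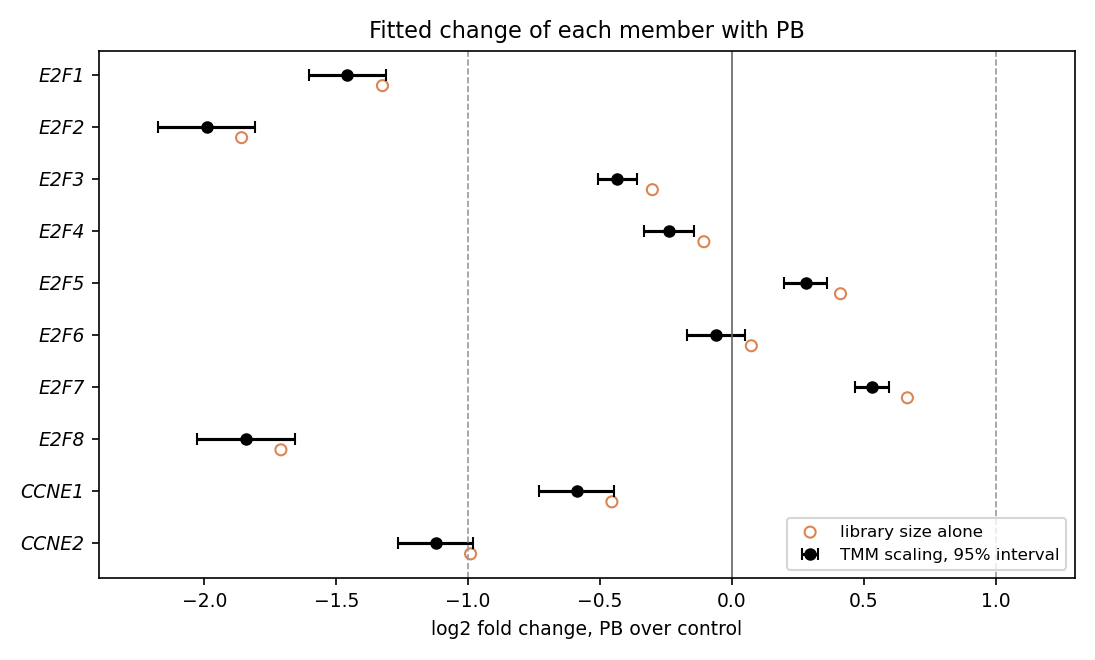
Fitted log2 fold change of each member, PB over control, from edgeR with TMM scaling (black, with the 95% interval) and from the fit with library size alone (open circles), with dashed lines at the fold threshold of 1. E2F2 lies lowest at −1.99 and E2F7 highest at 0.53, and E2F6 changes sign between the scalings.

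The order of abundance differed between the control and the PB samples. In control it ran E2F3, E2F7, E2F4, E2F1, CCNE1, E2F5, E2F6, CCNE2, E2F8 and E2F2 by mean FPKM, where the ranges of CCNE1 and E2F5 overlapped and other neighbours did not overlap. In PB it ran E2F7, E2F3, E2F4, E2F5, E2F6, CCNE1, E2F1, CCNE2, E2F8 and E2F2, where the ranges of E2F4 and E2F5 overlapped. E2F1 thus passed behind E2F5, E2F6 and CCNE1.

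The composition of E2F mRNA changed more than its sum. The 8 E2Fs summed to 88.9–92.1 FPKM in control and 83.6–87.9 FPKM in PB. The activators summed to 33.5–35.7 FPKM in control and 20.3–21.7 FPKM in PB, and their share of E2F mRNA was 37.7–39.3% and 24.2–25.2%. The repressors held a share of 35.5–37.8% in control and 41.3–41.6% in PB. Their sum was 32.6–33.6 FPKM and 34.8–36.6 FPKM, and the groups overlapped once these sums were divided by the TMM factors. The atypical E2Fs held 24.5–25.8% in control and 33.5–34.1% in PB. Within them E2F7 held 18.7–19.5% and then 31.7–32.2% of all E2F mRNA, while E2F8 held 5.40–6.26% and then 1.81–1.94%. With summed CPM (counts scaled to the library total, with no correction for length) in place of FPKM the class shares kept these directions, with activators at 34.9–36.1% in control and 22.0–22.8% in PB. These shares are a description with no test, since members are not replicates.

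**Figure D3:**
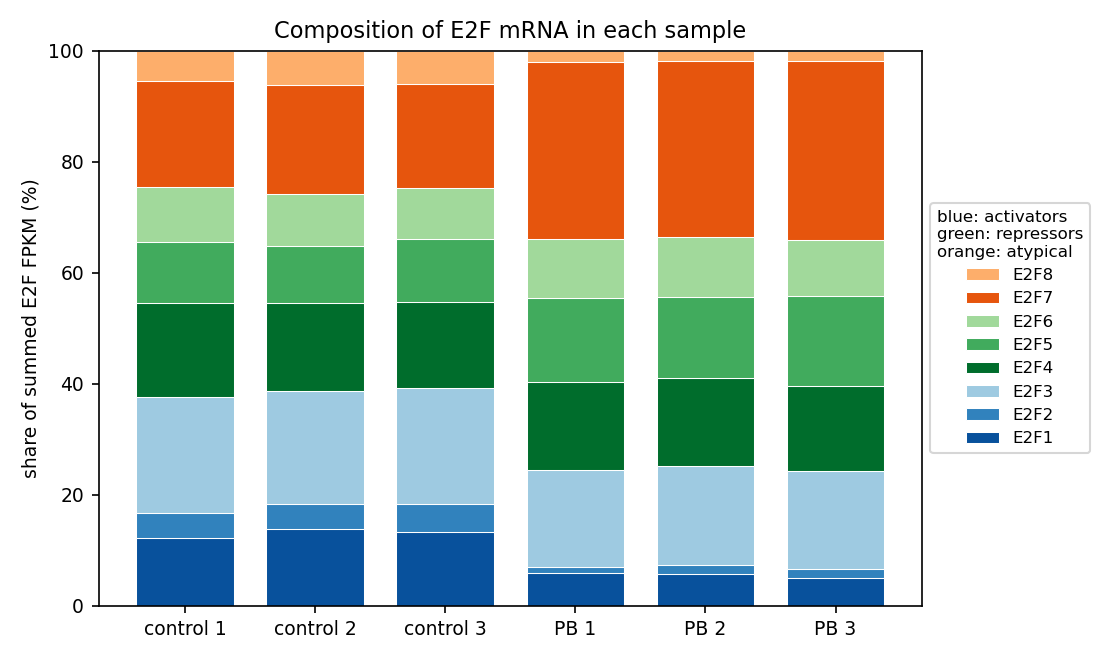
Share of the summed E2F FPKM (%) held by each E2F in each of the 6 samples, with activators in blue, repressors in green and atypical E2Fs in orange. The activators drop from 37.7–39.3% in the control samples to 24.2–25.2% in the PB samples, and E2F7 widens to 31.7–32.2%.

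Among the proteins that E2Fs bind, the main DP partner was called lower. TFDP1, which most E2Fs need to bind DNA, fell from 28.9 ± 1.34 FPKM (SD, n = 3) to 13.1 ± 0.521 FPKM (SD, n = 3), with a log2 fold change of −1.27 (SE 0.041, adjusted p = 2.87e-208). TFDP2 was at 6.25 FPKM and 8.22 FPKM, with a log2 fold change of 0.26 (adjusted p = 7.32e-11), and TFDP3 had no count in any sample. None of the 3 pocket proteins was called. RB1 was at 17.87, 16.64 and 17.81 FPKM in control and at 16.90, 17.02 and 15.76 FPKM in PB, so the groups overlapped, with a log2 fold change of −0.21 (adjusted p = 8.20e-09). RBL1, itself an E2F target, had a log2 fold change of −0.69 (adjusted p = 1.15e-44), and RBL2, which marks resting cells, of 0.29 (adjusted p = 8.58e-18).

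MYBL2 and FOXM1 are the factors that turn the MuvB complex from a repressor into an activator of mitotic genes. They were the 2 of 7 genes (28.6%) of the MuvB list called lower, where 6.73% of all tested genes were. MYBL2 fell from 65.0 FPKM to 15.0 FPKM with a log2 fold change of −2.25 (SE 0.039), and FOXM1 from 39.1 FPKM to 16.4 FPKM with −1.39. The 5 core subunits were not called, and LIN37, which is needed for the repressive form, had a log2 fold change of 0.54. The median of the list was −0.50, where the median of all genes was 0.011.

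On the cyclin E side, 3 of 7 (42.9%) partners and activators of cyclin E-CDK2 were called lower and none higher. Over all tested genes 6.73% were called lower and 5.36% higher. The median log2 fold change of the 7 genes was −0.96. CDK2, the kinase itself, fell from 32.3 FPKM to 14.0 FPKM (log2 fold change −1.34, SE 0.039, adjusted p = 6.26e-252). CDC25A, the phosphatase that activates CDK2, was at 14.1 FPKM and 4.57 FPKM (log2 fold change −1.76, adjusted p = 2.27e-204), and CKS2, a small subunit that docks on CDKs, at 249 FPKM and 82.2 FPKM (log2 fold change −1.73). The CDK7, CCNH and MNAT1 subunits of the CDK-activating kinase were not called. Of 9 genes listed under cyclin E turnover, 2 (22.2%) were called lower and 7 were not called. By the roles given here neither called gene acts on cyclin E itself, so the count is no result about its turnover. They were CCNF, an F-box protein that targets E2F proteins, with a log2 fold change of −1.90 (adjusted p = 5.20e-217), and FBXO5, an inhibitor of the anaphase-promoting complex, with −1.27. FBXW7, the F-box protein that marks cyclin E for degradation, had a log2 fold change of −0.064 (adjusted p = 0.503), positive with library size alone at 0.069. Of 6 cyclin E-CDK2 substrates, CDC6 alone was called lower, with a log2 fold change of −2.04.

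The CDK inhibitors did not move as a group. Of 7 genes, 1 (14.3%) was called lower and 1 higher, where 6.73% and 5.36% of all tested genes were. CDKN2C (p18) fell from 12.9 FPKM to 4.30 FPKM (log2 fold change −1.72, SE 0.070, adjusted p = 1.15e-130). CDKN1C (p57) was called higher from low counts of 10 to 60 per sample, with a log2 fold change of 1.20 (SE 0.24, adjusted p = 2.95e-06). Its log2 fold change was 0.96 without control replicate 1 and 0.91 without PB replicate 1, which ends the call. CDKN1A (p21), the inhibitor induced by p53, was at 24.35, 23.40 and 23.79 FPKM in control and 21.05, 20.52 and 22.11 FPKM in PB, with a log2 fold change of −0.30 (SE 0.042). CDKN1B (p27) had a log2 fold change of 0.22. CDKN2A, whose locus is known to be deleted in MDA-MB-231, was nevertheless counted in all 6 samples, at 9.86, 10.13 and 10.33 FPKM in control and 11.12, 10.92 and 12.01 FPKM in PB, and its neighbour CDKN2B had means of 8.30 FPKM and 11.2 FPKM.

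Of the 5 D-type cyclin kinase genes, which act on the pocket proteins before cyclin E, CCND2 alone was called. It was higher in PB, from 0.37, 0.37 and 0.36 FPKM to 1.96, 1.97 and 1.95 FPKM (log2 fold change 2.29, SE 0.13, adjusted p = 5.14e-73). CCND1, the abundant D-type cyclin here, had means of 106 FPKM and 110 FPKM with a log2 fold change of −0.081 under TMM and 0.052 with library size alone, so no direction can be given. CCND3 had a log2 fold change of −0.82, CDK6 of −0.58 and CDK4 of −0.17. Across the union of these regulator lists, 44 genes were tested, 10 were called lower and 2 higher (CDKN1C and CCND2), with a median log2 fold change of −0.31.

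The genes listed here as targets of activator E2Fs were lower as a body. They were chosen with earlier results of these data known, so their counts are a description and no test. Of 64 target genes, 50 (78.1%) were called lower and none higher, against 6.73% and 5.36% of all tested genes, and their median log2 fold change was −1.41. Their summed level was 1858–1877 FPKM in control and 723–740 FPKM in PB. Among 28 genes of origin licensing and replication, 25 were called lower, with a median of −1.45. PCNA, the sliding clamp of the replication fork, showed the deepest fall of that list, from 115 FPKM to 26.2 FPKM (log2 fold change −2.27, SE 0.040). The other 3 were CDT1 (−0.60), GINS3 (−0.65) and POLE (−0.94), which had negative log2 fold changes short of the threshold. CDT1 is the licensing factor that is also controlled by protein degradation.

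Of 8 nucleotide synthesis genes, 6 were called lower, with a median of −1.58. TYMS, the thymidylate synthase, had the deepest fall from 49.5 FPKM to 11.4 FPKM (log2 fold change −2.25, SE 0.045), and DCK (−0.28) and CAD (−0.32) were not called. Of 28 genes of the cell cycle, chromatin and repair, 19 were called lower, with a median of −1.38. They ranged from MYBL2 at −2.25 to the Polycomb methyltransferase EZH2 at −0.35, which was not called. Of the 64 targets 57 had a promoter window, and 19 of these held an E2F match of the kind shown above for E2F1 and E2F2. The epithelial markers and the 113 control-restricted genes moved with the same groups as these targets, and their part was not tested.

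Of 11 apoptosis genes attributed to E2F1 none was called lower and 1 was called higher, counts near the background of 6.73% lower and 5.36% higher over all tested genes. HRK, a BH3-only activator of apoptosis, was at 0.55 ± 0.010 FPKM (SD, n = 3) in control and 2.07 ± 0.121 FPKM (SD, n = 3) in PB (log2 fold change 1.78, SE 0.12, adjusted p = 1.55e-47), and it fell just short of the fold threshold, at 0.99, with limma on log2(FPKM + 1). The median of the list was −0.27, from BID at −0.79 upward. APAF1, the apoptosome scaffold, had −0.74, and TP73, at means of 0.58 FPKM and 0.39 FPKM, −0.71. By the adjusted p alone 6 of the 11 were lower and 3 higher, where 26.1% and 24.1% of all tested genes were. Beside HRK the higher genes were BBC3 (0.73, adjusted p = 7.04e-06) and BCL2L11 (0.31, adjusted p = 2.61e-04).

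Of 12 partners of E2F6 in the Polycomb complex PRC1.6 none was called, which is near the background of 6.73% lower and 5.36% higher for a list of this size, and the median log2 fold change was −0.055, from CBX3 at −0.72 to RING1 at 0.68. Of 9 germline genes that E2F6 is known to silence 4 were tested and none was called, too few to read against that background, with a median of −0.054. TUBA3C, SLC25A31, MAEL and DAZL were at or under 3 counts in every sample, and STK31 did not pass the expression limit.

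**Figure D4:**
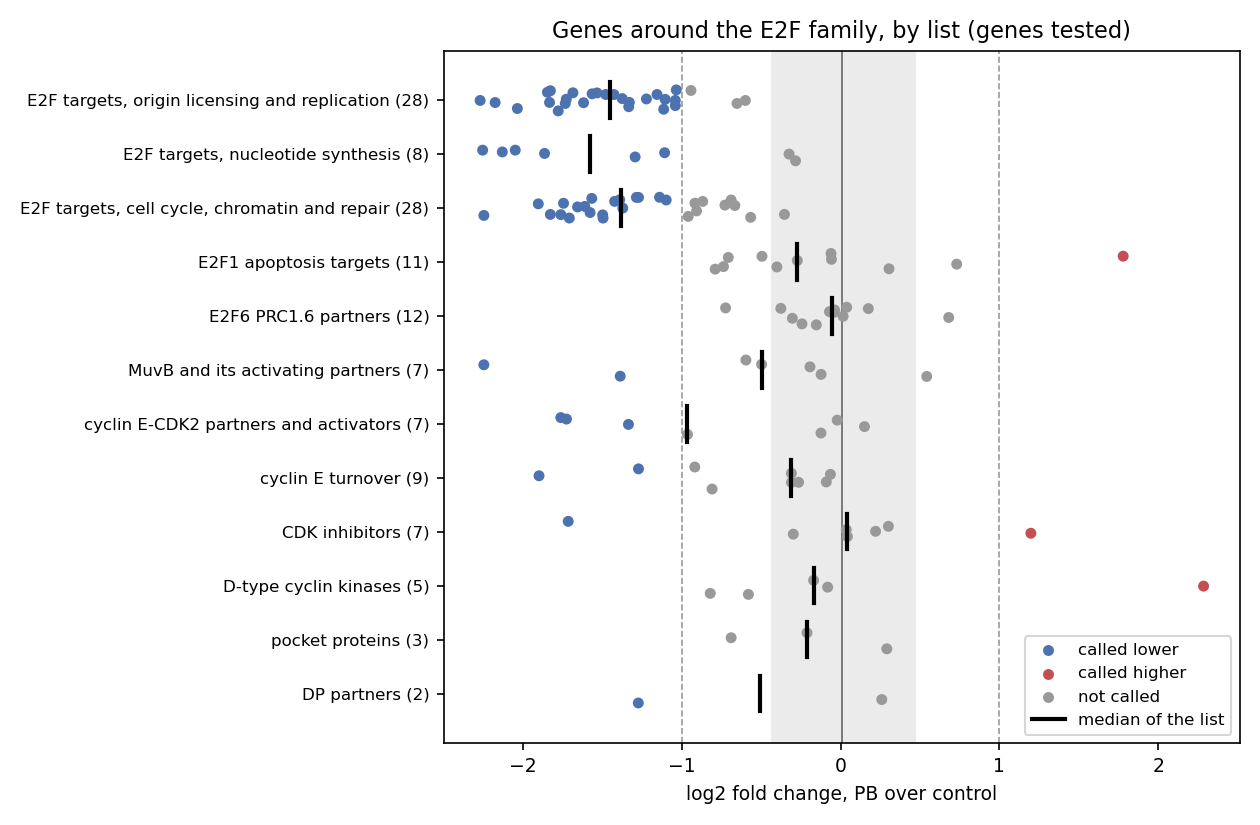
Log2 fold change, PB over control, of each tested gene in the lists around the E2F family (number tested in brackets), with genes called lower in blue, called higher in red and not called in grey, black bars at list medians, dashed lines at the fold threshold and a grey band from the lower to the upper quartile of all tested genes. The 3 target lists have medians of −1.45, −1.58 and −1.38, left of the other lists. The lists were chosen with earlier results of these data known.

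Many genes shared the pattern of the members over the 6 samples. Among 13532 other genes with a mean of at least 1 FPKM, 570 had a Pearson r above 0.99 with E2F7, the member with the largest rise, on log2 CPM after TMM. The closest were TSTD1 (r = 0.999), the unnamed gene ENSG00000286058 and RTCA-AS1. With E2F2, the member with the largest fall, 920 genes had an r above 0.99, led by SLF1 (r = 0.999), PSMA5 and UCK2. The points are 2 groups of 3 libraries, so r mostly restates the difference between the groups. Pseudogenes of E2F3, E2F4 and E2F6, the intronic transcript E2F3-IT1 and the divergent transcript E2F5-DT reached at most 12 counts in a sample.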

How the data were processed

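Polyadenylated RNA of 3 control and 3 PB-treated MDA-MB-231 samples was sequenced in paired reads. The authors deposited 1 gene table (61806 genes, coordinates on hg38) with raw counts and FPKM. The submitters' processing notes name HTSeq 0.6.1, DESeq2 and Cufflinks 2.2.1, and the aligner and strand setting are not given in the sources used here. All 100% of the deposited FPKM values lay within rounding of count over exonic length and library total, so FPKM carries no correction for composition. Dose and time come from the study's methods. The table holds no columns of the authors' own comparison, and 0 sample columns were left unmatched. Counts were fitted with edgeR 4.0.16 (TMM, quasi-likelihood test, R 4.3.3) over 24200 genes of mean FPKM of at least 0.1, with Benjamini-Hochberg adjustment over all of them. A call needed an adjusted p of at most 0.05 and an absolute log2 fold change of at least 1. DESeq2 1.42.0, limma 3.58.1 on log2(FPKM + 0.1) or log2(FPKM + 1), library size alone, other filters and thresholds, a replicate block and leaving out each sample were alternatives. Scripts were tested on simulated data. The median biological coefficient of variation was 6.97%. Between samples of a group, chi-square over degrees of freedom was 1.45–1.92, above sampling noise, and all samples were kept as separate. This value cannot tell separate cultures from separate libraries of the same culture.

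All members were named with every value. In other lists the rule named the called genes with the largest rise and fall at a mean FPKM of at least 1, called genes against the majority and, in lists of 5 or fewer, every gene. Other genes were named after their values were seen, mostly where a count was small or their role is well known. The members and lists were chosen with earlier results of these data known. Gene roles are textbook background. Promoter windows came from the RefSeq table of GRCh38.p14 and exonic overlaps from GENCODE 29.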

Additional observations from a re-analysis of the deposited data

How the results depend on the processing

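E2F1, E2F2 and E2F8 kept their calls under every tool, filter and scaling run and without each sample in turn, and lost them only at a log2 fold change of at least 2, where 0 members were called lower. CCNE2 lost its call with library size alone (−0.99) and with limma at either pseudocount (−0.97 and −0.81). With no fold threshold 7 members were lower and 2 higher. E2F6 changed sign, to 0.074 with library size alone, 0.072 with limma on log2(FPKM + 0.1) and 0.066 with limma on log2(FPKM + 1). E2F4 missed the p threshold with limma (−0.11 and −0.10, adjusted p = 0.0771 and 0.0757), and the cause was not tested. In edgeR with library size alone its log2 fold change was −0.11 (adjusted p = 0.0491). Its adjusted p was between 3.84e-06 and 6.92e-04 without each sample in turn.

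Over all genes, 1629 were called lower and 1296 higher. More genes were higher than lower with library size alone (1336 lower, 1809 higher) and with limma on log2(FPKM + 0.1) (1197 lower, 1384 higher). The counts of lower and higher genes were 1450 and 1049 with DESeq2, 769 and 608 at a mean FPKM of at least 1, 496 and 329 with limma on log2(FPKM + 1), 6322 and 5829 with no fold threshold and 627 and 259 at a log2 fold change of at least 2. Of the 64 E2F targets 7 were called lower at that threshold. Among regulators, 1 was called higher at a mean FPKM of at least 1 and 1 with limma on log2(FPKM + 1), 31 lower and 8 higher with no fold threshold, and 2 lower and 1 higher at a log2 fold change of at least 2. Leaving out each sample in turn gave 1–2 higher, the change being CDKN1C. Of the E2F1 apoptosis genes, 0 were higher with limma on log2(FPKM + 1) and at a log2 fold change of at least 2, and 6 were lower and 3 higher with no fold threshold. The larger pseudocount and the thresholds act by construction on low genes and on small changes.

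Samples with the same replicate number showed no shared deviation (correlations −0.029, 0.043 and −0.029). This cannot show how the samples were handled, and no source used here says whether the numbers pair them. With the number as a replicate block 1547 genes were called lower and 1206 higher, members stayed at 4 lower and 0 higher, and E2F targets at 50 lower. CCNE2 then had a log2 fold change of −1.12 and E2F7 of 0.53. With 3 samples a group and 88 counts at the least, small differences such as that of E2F6 were not resolved at this depth.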
